A study of Mus musculus with 10 samples.

Results

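The sperm tail genes described here were 85 of the 21969 genes in the deposited expression matrix. They were chosen by symbol and by level. The symbol had to begin with Cfap, Dnah, Dnaic, Dnal, Tekt, Rsph, Odf, Drc or Spag, or with Akap3 or Akap4, and the gene had to reach 1 FPKM in at least 2 of the 10 libraries. FPKM is the number of sequenced fragments of a gene scaled by transcript length and by library depth. The pattern took 89 symbols, of which Dnah5, Odf3l2, Spag11a and Spag11b missed the level and were left out. The members just above the level were Cfap97d2 (1.52 and 1.95 FPKM at week 0), Dnah11 (2.28 and 1.48) and Dnah9 (3.40 and 2.62), while Dnah5 just below it had its 2 highest values at 1.00 and 0.943 FPKM in GS cells. Levels were thus part of the choice, and a member that passed through 1 group alone had to differ from the other groups, so counts of members below are descriptions. By symbol the 85 were 31 Cfap, 14 Dnah, 10 Spag, 8 Rsph, 7 Odf, 5 Tekt, 3 Dnal, 3 Drc, 2 Dnaic and 2 Akap genes.

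The libraries came from mice of the strain DBA/2, 2 libraries in each of 5 groups. Week 0 was cells of the adult testis taken with magnetic beads against CD9, a surface protein of spermatogonia that other cells carry too. Weeks 1, 2 and 3 were such cells after 1, 2 and 3 weeks in an Iscove-type medium with FGF2, GDNF and a little fetal bovine serum. GS cells were established cultures of spermatogonial stem cells in the same medium. Replicates are not tied to separate animals or cultures by the labels, so each p-value reflects no more than library-to-library spread, possibly technical. Depth, read from the steps of low FPKM values, was 10.34 to 21.08 M reads per library (M, 1e6), which puts 1 read of a 2200-base transcript at 0.0237 to 0.0483 FPKM. Replicates correlated at 0.987 to 0.993 across genes, which are not independent replicates.

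The axoneme is the microtubule core of flagella and motile cilia, a ring of doublet microtubules around a central pair. Outer and inner dynein arms on the doublets drive sliding, radial spokes and the nexin-dynein regulatory complex control it, and tektins and other filament proteins line the inside of the doublets. In sperm, outer dense fibres and a fibrous sheath surround this core, and spermatids build the whole tail after meiosis. Stem cells and other spermatogonia carry no flagellum.

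The label spermatogonial stem cell was first set against stage markers. All 16 genes of a spermatid list (protamines, transition proteins and acrosome genes) were present at week 0, with summed levels of 24490 and 26070 FPKM, and Prm1, a protamine that packs sperm DNA, stood at 5117 and 5588 FPKM. The same list summed to 157 and 150.1 FPKM at week 1 and to 9.47 to 15.6 FPKM in the 6 later libraries. A list of 18 undifferentiated spermatogonia markers summed to 148 and 152 FPKM at week 0 and to 936 to 1144 FPKM in the 8 cultured libraries. The week 0 libraries therefore held abundant spermatid RNA and are called the fresh CD9-selected cells below. In such bulk libraries, fewer cells of a type and less RNA per cell cannot be told apart.

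The sperm tail genes also hold members that are known for work outside the flagellum. Spag5 is a mitotic spindle protein, Spag9 a scaffold of JNK signalling, Odf2 a protein of centrioles as well as of outer dense fibres, and Spag1, Cfap298 and Cfap300 are cytoplasmic factors that assemble dynein arms. Among the 85, 33 reached 1 FPKM in both fresh libraries and in no other, 29 reached it in all 10 libraries, and the other 23 had mixed patterns. Members are spread over the genome, with 14 on chromosome 11, 9 on chromosome 1 and 7 each on chromosomes 4 and 5.

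Promoter windows are shown because the members moved together, and because RFX transcription factors, which bind X-box motifs, are known regulators of cilium and sperm tail genes. The RefSeq table (GRCm38.p6, the assembly of mm10) holds 250 bases before and 50 after each annotated start. It matched 73 of the 85 members with 87 windows, and windows of 1 gene can overlap. Unmatched members were Cfap157, Cfap299, Cfap53, Cfap54, Cfap65, Cfap73, Cfap97, Dnah3, Odf1, Rsph1, Rsph4a and Spag1. Odf2, Rsph3a, Akap4, Cfap69, Cfap206 and Dnah8 were matched and more abundant at week 0 than Tekt2, but held no searched motif. The printed windows therefore do not stand for the most abundant members. Below are the windows of the 3 most abundant matched members at week 0 that hold a searched motif, each 5′ to 3′ on the strand of the gene, with the motif letters in capitals.
Cfap298, chr16:90934800-90935099, minus strand: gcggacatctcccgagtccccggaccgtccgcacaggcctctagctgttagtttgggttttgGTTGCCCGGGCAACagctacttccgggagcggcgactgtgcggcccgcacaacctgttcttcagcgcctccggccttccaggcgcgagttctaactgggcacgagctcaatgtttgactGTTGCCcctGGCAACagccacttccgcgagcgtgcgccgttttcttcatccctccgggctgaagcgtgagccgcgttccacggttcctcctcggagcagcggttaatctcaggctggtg
Tekt2, chr4:126325597-126325896, minus strand: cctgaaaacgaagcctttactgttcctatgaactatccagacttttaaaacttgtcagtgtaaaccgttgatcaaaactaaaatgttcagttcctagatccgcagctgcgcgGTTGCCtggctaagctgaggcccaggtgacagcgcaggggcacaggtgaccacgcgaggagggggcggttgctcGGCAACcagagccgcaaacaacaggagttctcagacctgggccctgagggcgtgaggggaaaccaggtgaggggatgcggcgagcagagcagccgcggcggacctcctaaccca
Tekt4, chr17:25471340-25471639, plus strand: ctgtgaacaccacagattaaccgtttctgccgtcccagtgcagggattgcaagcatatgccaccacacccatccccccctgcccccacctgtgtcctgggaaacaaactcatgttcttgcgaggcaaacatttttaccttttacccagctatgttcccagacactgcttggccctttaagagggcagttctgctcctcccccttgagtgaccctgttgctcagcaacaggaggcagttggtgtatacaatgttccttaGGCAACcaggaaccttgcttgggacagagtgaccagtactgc

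Counted from the first printed base, the Cfap298 window held a full X-box form (a half-site, 2 free bases and an inverted half-site with 1 free base) at bases 63 to 76 and a further pair of RFX half-sites (GTTGCC, read on either strand) at bases 182 to 187 and 191 to 196 in opposite orientation. In the Tekt2 window half-sites stood at bases 113 to 118 and 187 to 192, and the Tekt4 window held 1 at bases 259 to 264, past the annotated start. The Cfap298 and Tekt4 windows lie within the GENCODE M21 spans of their genes (chr16:90925809-90935114 and chr17:25454615-25476602), and the Tekt2 window reaches past the 5′ end of its gene (chr4:126322121-126325688). The half-site was found in 29 of the 87 member windows (33.3%, 95% Wilson interval 24.3 to 43.8) against 12.5% of all 32851 windows of that length. The interval covers counting error only and takes windows as independent, which overlapping windows of 1 gene are not. In the last 150 bases of each window the shares were 25.3% and 6.90%. The X-box form, which contains half-sites, was in 1 member window (1.15%) against 0.298% of all windows. Only that spelling with 2 free bases was searched. Pairs with other spacing or letters, such as the further pair in the Cfap298 window, were not counted as X-boxes. A full cAMP response element (TGACGTCA), bound by CREM, was in 3 member windows (3.45% against 1.79%). The TATA box (TATAAA) was in 4 member windows (4.60% against 13.6%). By pattern of level, the half-site stood in 12 of 31 windows of members seen only in the fresh cells, 8 of 35 windows of members seen in all 10 libraries and 9 of 21 windows of the others. These are matches of letters, not measured binding.

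**Figure D1:**
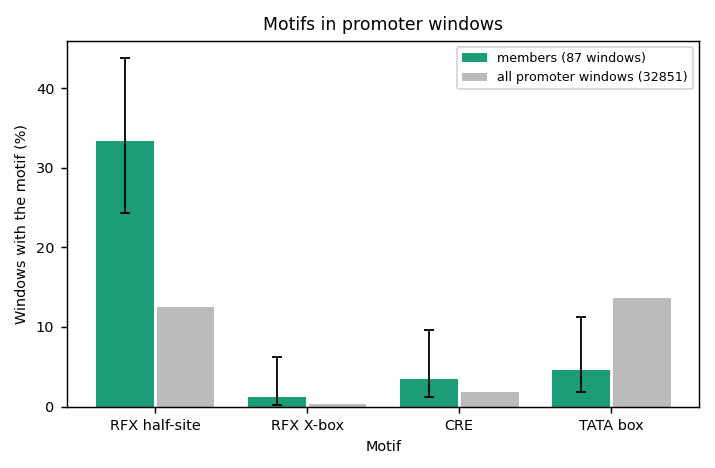
Share of promoter windows (percent) that hold each of 4 motifs on either strand, for the 87 windows of the sperm tail genes and for all 32851 windows of the table; bars start at 0 and error bars are 95% Wilson intervals for the member windows. The RFX half-site reached 33.3% of member windows against 12.5% of all, and the TATA box 4.60% against 13.6%.

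In the fresh cells the sperm tail genes were abundant and differed widely among themselves. Their FPKM made up 1.71% and 1.65% of the library sum at week 0 and 0.0772% to 0.0960% in the 8 cultured libraries. The median member stood at 80.9 FPKM at week 0 (mean of 2 libraries), and family medians ran from 33.6 FPKM for Dnah to 352 FPKM for Akap. At week 0, 84 of the 85 members reached 1 FPKM in each library, against 35 to 45 in the cultured libraries. Both fresh libraries exceeded all 8 cultured ones in 81 of the 85 members. For the 33 members seen only in the fresh cells this was set by the choice. Cfap161, Cfap299, Cfap44, Dnah10 and Dnah11 also passed the level only with the fresh libraries, since just 1 cultured library of each reached it. These counts were not made over all genes tested, so they are descriptions. The plot of all members by library shows the step down after week 0 in nearly every line.

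**Figure D2:**
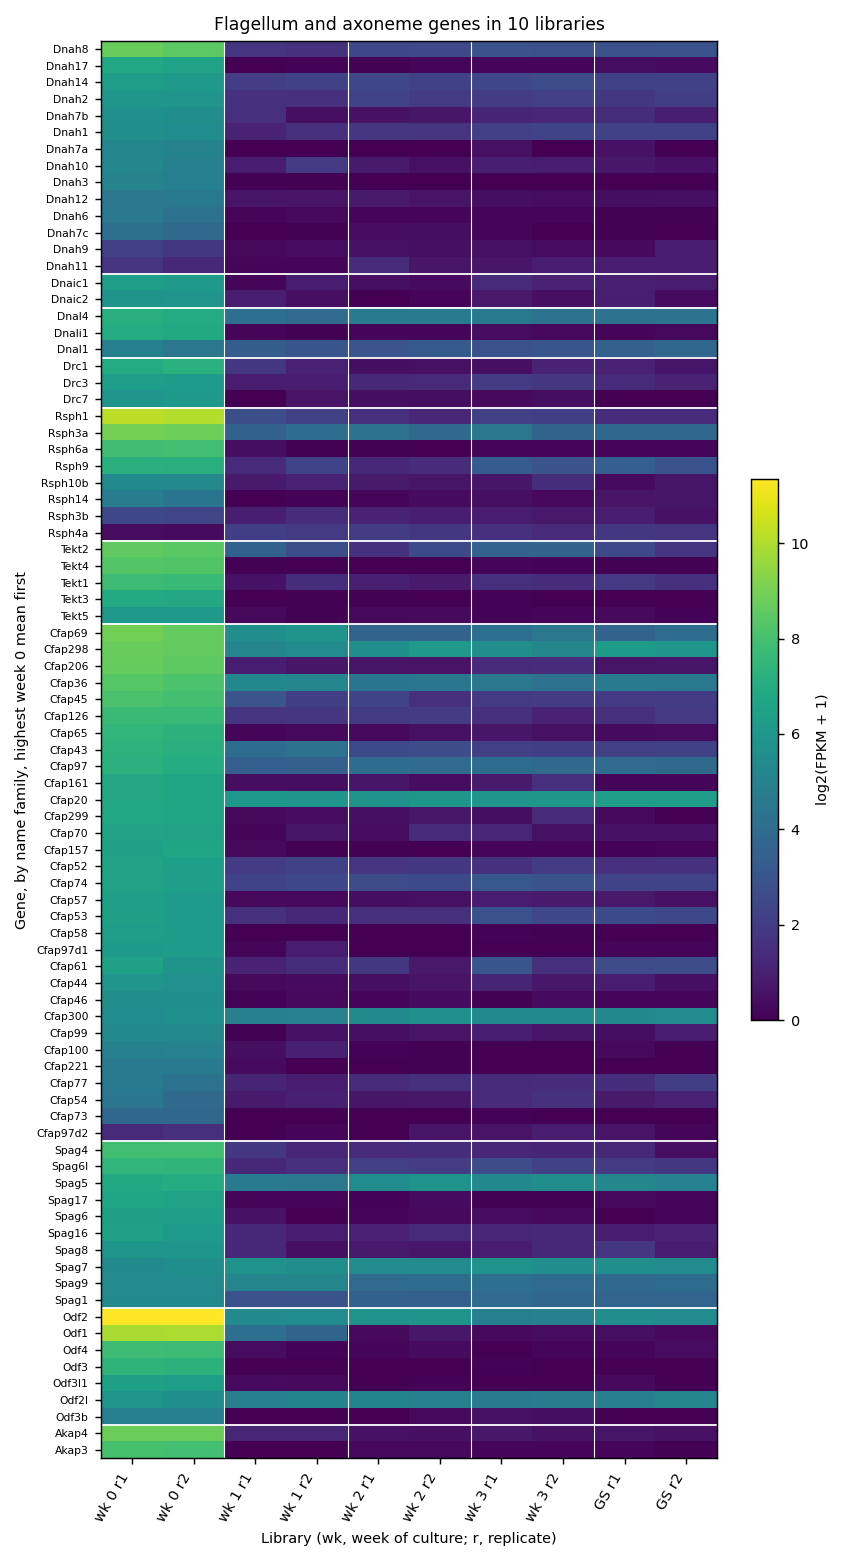
Level of each of the 85 members, as log2(FPKM + 1) on a colour scale, in the 10 libraries (columns, grouped by week of culture and GS cells); lines are genes, ordered by symbol family and by week 0 mean. The first 2 columns are the brightest for nearly every member, and a few lines such as Cfap20, Cfap300, Odf2l, Spag5 and Spag7 stay bright across all columns.

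The highest level of all belonged to a gene of the outer dense fibres. Odf2, a main protein of the outer dense fibres, had 2605 and 2568 FPKM in the fresh libraries. Week 1 libraries had 41.8 and 44.2 FPKM of it, week 2 libraries 55.6 and 58.2, week 3 libraries 28.5 and 30.0, and GS libraries 45.6 and 44.0. It alone gave 17.7% and 18.4% of the summed member FPKM at week 0, and its lowest fresh value was far above every cultured value. Odf1, a small heat shock-like protein of the same fibres, had 952 and 1001 FPKM at week 0. For the fibrous sheath, the anchoring proteins Akap4 and Akap3 stood at 444 and 449 FPKM and at 264 and 249.7 FPKM. Akap3 was listed at 0 in both week 1 libraries.

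Among the outer arm dynein genes, heavy chains known from sperm were high and those known from airway cilia were low. The outer arm heavy chain of sperm, Dnah8, had 412 and 359.5 FPKM at week 0, and its partner Dnah17 had 107 and 92.9. The heavy chains known from airway cilia were low in the same libraries, with 0.476 and 0.559 FPKM for Dnah5, 3.40 and 2.62 for Dnah9, and 2.28 and 1.48 for Dnah11. No library of the airway forms overlapped those of Dnah8 or Dnah17 at week 0. The intermediate chains Dnaic1 and Dnaic2 stood at 78.4 and 70.1 FPKM and at 58.4 and 59.3 FPKM. The inner arm heavy chains Dnah1, Dnah2 and Dnah10 had 29.7 to 63.1 FPKM, and the light intermediate chain Dnali1 had 125 and 118. Dnah7a, Dnah7b and Dnah7c are near-identical copies, so how reads were shared among them is uncertain.

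Radial spoke genes also differed widely. Rsph1, a protein of the spoke head, was the second most abundant member at week 0 with 1169.5 and 1064 FPKM. Rsph6a, the spoke head protein of the testis, had 231 and 241 FPKM, whereas its paralog Rsph4a, known from airway cilia, had 0.280 and 0.275. Rsph3a, of the spoke stalk, stood at 496 and 458 FPKM against 4.42 and 4.18 for its near copy Rsph3b, a division that rests on how the authors shared reads. The nexin-dynein regulatory genes Drc1, Drc3 and Drc7 ranged from 60.1 to 151 FPKM. Among central apparatus genes, Spag16 had 88.5 and 75.3 FPKM, Spag17 105 and 91.8, Spag6l 178 and 171, and Cfap221 25.2 and 24.8.

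**Figure D3:**
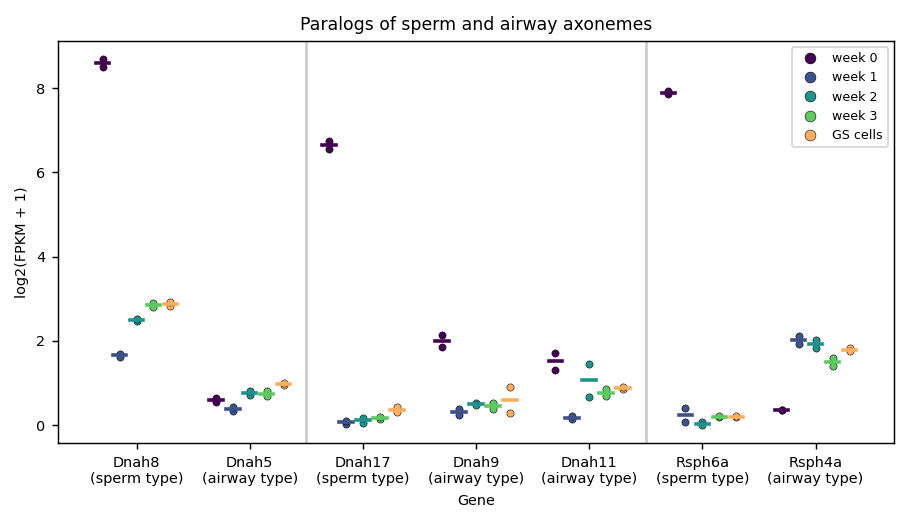
Level as log2(FPKM + 1) of sperm-type and airway-type outer arm heavy chains and spoke head proteins; points are the 2 libraries of each group, bars their mean, colours the 5 groups. At week 0 Dnah8, Dnah17 and Rsph6a stand above their airway paralogs, and Rsph4a is the only gene shown with all cultured libraries above week 0.

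Tektins line the doublets, and all 5 were well detected in the fresh cells. Tekt2 and Tekt4, filament proteins of the doublet wall, had 384 and 346 FPKM and 321 and 304 FPKM in the fresh libraries. Tekt1 had 216 and 199, Tekt3 123 and 116, and Tekt5 68.9 and 67.8. The Cfap genes are a mixed group by role. Highest of them was Cfap69, needed for the sperm tail, with 483 and 395 FPKM. Cfap298 followed with 413 and 398 FPKM and Cfap206, a radial spoke protein, with 400.3 and 375.

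One week of culture was compared with the fresh cells to ask what became of sperm tail transcripts on entry into culture. Of the 85 members, 83 were lower at week 1, Rsph4a was higher, and Spag7 did not pass the test. Over all 15671 genes tested, 80.3% were called in this comparison, 36.3% higher and 44% lower, with a median log2 fold change of -0.14 against -5.11 for the members. The test was limma on log2(FPKM + 1) with Benjamini-Hochberg adjustment over all genes tested and a threshold of 0.05, and fold changes on this scale understate the change of low genes. The 33 members seen only in the fresh cells were lower by the way they were chosen, as were 99.9% of 1568 such genes. Cfap161, Cfap299, Cfap44, Dnah10 and Dnah11 passed the level only with the fresh libraries, so their falls from the fresh cells were partly set too. Of the 29 members present in all 10 libraries 28 were lower, against 37.3% lower among 10802 such genes. At week 1, 65 of the 85 members stood below 5% of their fresh level and 6 above 50%. Such shares were not counted over all genes tested, so both counts are descriptions. For the 33 members seen only in the fresh cells, and for Cfap161, Cfap299, Cfap44, Dnah10 and Dnah11, a low share was partly set by the choice.

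By log2 fold change the 8 deepest differences belonged to Tekt4, Akap3, Cfap206, Rsph1, Rsph6a, Akap4, Odf4 and Odf3. Of these, Tekt4, Akap3, Rsph6a, Odf4 and Odf3 are among the 33 members seen only in the fresh cells, so their direction was set by the choice and their values are descriptions. Tekt4 stood at 0.0450 and 0 FPKM at week 1, and Akap3 and Odf3 were listed at 0 in both week 1 libraries. Rsph6a and Odf4 differed by -7.66 and -7.58 on the log2 scale. Rsph1, present in all 10 libraries, dropped to 5.66 and 3.52 FPKM (log2 fold change -7.67, SE 0.191, adjusted p = 4.37e-09, limma). Akap4 reached 1.34 and 1.31 FPKM, a log2 fold change of -7.59, and Cfap206 changed by -7.79. In Rsph1 and Akap4 the groups did not overlap. Dnah8 fell to 2.24 and 2.07 FPKM, and Dnah17, seen only in the fresh cells, stood at 0.0134 and 0.0769. Odf1 kept more of its level, with 16.8 and 11.7 FPKM left (log2 fold change -6.03).

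Lists of other sperm tail genes, outside the symbol pattern, were lower too. Their genes had to reach 1 FPKM in 2 libraries as well, so those that did so in the fresh cells alone were lower by that choice. Such genes were not counted by list, so all list counts in this paragraph are descriptions. All 15 measured dynein assembly and docking factors, all 14 ruler, nexin and central pair genes, all 12 genes of fibrous sheath proteins and tail enzymes and all 10 CatSper channel genes were lower at week 1. Their median log2 fold changes were -4.15, -4.39, -6.56 and -5.76. Dnaaf1, a dynein assembly factor, went from 496 and 471 FPKM to 0.549 and 0.264, and Gapdhs, the glycolytic enzyme bound to the fibrous sheath, from 1386 and 1458 to 4.04 and 7.29. Catsper1, a pore subunit of the sperm calcium channel, was listed at 0 in all 8 cultured libraries. In each week 1 library 5 of the 10 CatSper channel genes were at 0. The 22 intraflagellar transport genes, which other ciliated cells use too, had a smaller median of -1.81, with 21 lower and 1 higher. Ift81 had 142 and 134 FPKM at week 0 and 31.4 and 24.2 at week 1. Regulators were lower in 9 of 10, among them Rfx2, a factor needed for spermatid tails, from 209.9 and 188 to 3.14 and 3.59 FPKM, Crem from 359.9 and 310.4 to 36.1 and 33.4, and Foxj1, the regulator of motile cilia, from 60.7 and 53.6 to 1.11 and 0.674. All 16 spermatid genes of the nucleus and acrosome were lower as well (median -7.36), as were 16 of 17 meiotic genes (median -1.77). Markers of other testis cells moved in the same step. Of 9 Leydig cell genes 8 were lower (median -4.21), from a summed 1831 and 1584 FPKM to 78.0 and 85.9, with Cyp17a1 and Lhcgr at 0 in both week 1 libraries. Of 12 Sertoli cell genes 11 were lower and 1 higher (818.8 and 814 to 299 and 294 FPKM), with Fshr at 0. All 12 fibroblast and matrix genes were higher (median 3.01). The part of these cell types in the falls of the sperm tail genes was not tested.

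A small set of members kept much of its fresh level. Cfap20, a protein at the junction of the doublet tubules, had 114 and 104 FPKM fresh and 54.7 to 78.6 FPKM in the 8 cultured libraries. Cfap300 had 45.6 and 50.1 FPKM fresh, 30.1 and 31.5 at week 1, and 38.8 to 50.2 in the 6 later libraries, which overlapped the fresh ones. Spag7 had 41.9 and 49.6 FPKM fresh and 43.3 to 56.6 in culture, with overlap throughout. Odf2l, a centriolar relative of Odf2, had 58.8 and 49.0 FPKM fresh and 25.6 to 35.0 in culture. The changes at week 1 were -0.76 for Cfap20 (adjusted p = 6.74e-05), -0.62 for Cfap300 (7.22e-04) and -0.76 for Odf2l (8.80e-04), all by limma. With quantile normalization, which moved the median of all genes from -0.14 to 0.38, these 3 lost their calls, with adjusted p of 0.0813, 0.174 and 0.0584 by limma.

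Spag9 was hardly lower at week 1. It had 43.1 and 43.7 FPKM fresh and 34.9 and 35.9 at week 1, a log2 fold change of -0.29 (SE 0.0958, adjusted p = 0.0228, limma). Its call was lost without either week 0 library or without the first week 1 library, with adjusted p up to 0.741 over all alternatives, and its sign turned with quantile normalization (0.16). Spag1 and the light chains Dnal1 and Dnal4 kept an intermediate level. Spag1 had 41.6 and 41.0 FPKM fresh against 6.24 and 6.80 at week 1. Dnal1, an outer arm light chain, had 30.6 and 21.7 against 9.13 and 7.29, and Dnal4 137 and 125 against 16.5 and 14.9. None of these 3 overlapped between fresh and week 1 libraries.

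Rsph4a moved the other way from all other called members. It had 0.280 and 0.275 FPKM in the fresh libraries, against 3.37 and 2.80 in week 1 libraries and 3.03 and 2.57 in week 2 libraries. Week 3 libraries had 2.03 and 1.66 FPKM and GS libraries 2.56 and 2.39. Every cultured library lay above both fresh ones. The log2 fold change at week 1 was 1.67. With under 1 FPKM in both fresh libraries, Rsph4a was a member only through the cultured libraries. Some rise in culture was thus set by the choice, and these values are descriptions. Levels of Rsph4a stayed low in all groups, below those of Odf2l or Spag7 in the same libraries.

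The second week was compared with the first to follow members within the culture. Of the 85 members, 14 were higher and 11 lower at week 2, and 60 did not pass the test. Over all genes tested 55.6% were called, 28.2% higher and 27.4% lower. Among the 29 members present in all 10 libraries 11 were higher and 6 lower, beside 36.3% and 25.1% of such genes. As shares of the members, 16.5% were higher and 12.9% lower, both under the shares over all genes, while the 29 stood at 37.9% and 20.7%. Leaving out 1 library gave 10 to 13 higher and 8 to 14 lower members.

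Of the 11 falls at week 2, 5 were in Cfap genes, which is 16.1% of the 31 Cfap members, under the 27.4% lower over all genes tested. Odf1 had the largest fall and went from 16.8 and 11.7 FPKM to 0.214 and 0.658, a log2 fold change of -3.40 (SE 0.200, limma). Akap4 fell from 1.34 and 1.31 to 0.465 and 0.395 FPKM (log2 fold change -0.70), and Rsph1 to 1.88 and 1.31 (-1.09). In the same step the spermatid genes Prm1 (17.5 and 15.8 FPKM at week 1), Prm2 (119 and 110.4) and Tnp2 (6.45 and 9.25) were listed at 0 in both week 2 libraries, and their part in these falls was not tested. Tekt2 had 10.5 and 5.65 FPKM at week 1 and 2.05 and 4.80 at week 2. Its call (log2 fold change -1.06, adjusted p = 0.0396, limma) was lost without either week 0 library, the first week 1 library, the first week 2 library or either week 3 library, with adjusted p up to 0.240.

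Cfap69, Cfap43, Spag9 and Cfap36 had kept part of their level at week 1 and fell at week 2. Cfap69 went from 48.5 and 57.3 FPKM to 11.7 and 11.2 (log2 fold change -2.11, SE 0.182, adjusted p = 3.84e-05, limma). Spag9 went from 34.9 and 35.9 to 14.4 and 15.4 (log2 fold change -1.19, SE 0.0958, adjusted p = 2.66e-05, limma). The libraries of weeks 1 and 2 did not overlap in either gene. Cfap43, a tether of inner arm dynein, went from 16.0 and 18.3 to 4.83 and 5.46 FPKM, and its exons overlap those of Itprip on the same strand. Cfap36 went from 38.4 and 36.0 to 20.2 and 21.2. All 12 genes of a fibroblast and matrix list fell in the same step, and none was at 0 in any library. Their summed level was 698 and 849.8 FPKM in the fresh libraries, 7428 and 7379 at week 1, and 348 to 768 in the 6 later libraries. A list of 12 Sertoli cell genes, 1 of them at 0 in each cultured library, summed to 299 and 294 FPKM at week 1 and to 21.2 and 24.6 a week later, when 9 of them fell and none rose. The part of either cell type in these falls was not tested.

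Rises at week 2 were smaller. Spag5, the spindle protein, went from 23.9 and 22.2 FPKM to 44.8 and 54.2 (log2 fold change 1.06, SE 0.137, adjusted p = 3.23e-04, limma). In the same step 17 of 18 mitosis genes rose and none fell, from a summed 789.5 and 799 FPKM to 1406 and 1417, and their part in the rise of Spag5 was not tested. Dnah8 rose from 2.24 and 2.07 to 4.56 and 4.74 FPKM (log2 fold change 0.84, SE 0.111, adjusted p = 3.68e-04, limma), still at 1.21% of its fresh level. Spag6l, a central apparatus gene with a near copy in Spag6, rose from 1.38 and 1.87 to 3.44 and 3.18 FPKM. Spag1, Cfap97, Dnal4 and Cfap300 rose by 0.58, 0.60, 0.62 and 0.56 on the log2 scale. Dnah11 had 0.104 and 0.154 FPKM at week 1 and 1.75 and 0.600 at week 2, and its call (adjusted p = 0.0133, limma) was lost without the first week 1 or the first week 2 library, with adjusted p up to 0.0605. Its exons overlap those of Cdca7l on the opposite strand, which went from 22.8 and 25.7 to 48.6 and 48.9 FPKM. The sources used here do not give whether reads were counted by strand. In the same step 8 of 17 meiotic spermatocyte markers rose and none fell, from a summed 400.3 and 386 FPKM to 543 and 504. How many of them were called depended on the settings of the fit. Of 18 undifferentiated spermatogonia markers 13 rose and 2 fell, while their sum was 987.1 and 953 FPKM at week 1 and 962.2 and 1005 at week 2. Thy1 is on this list and on the fibroblast and matrix list. No gene of either list was at 0 in any library, and their part in these rises was not tested. Of the sperm tail lists, 7 of 12 fibrous sheath and tail enzyme genes fell at week 2 and none rose, beside 27.4% lower over all genes tested. Of 15 dynein assembly and docking factors 6 rose and none fell, beside 28.2% higher over all genes tested.

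**Figure D4:**
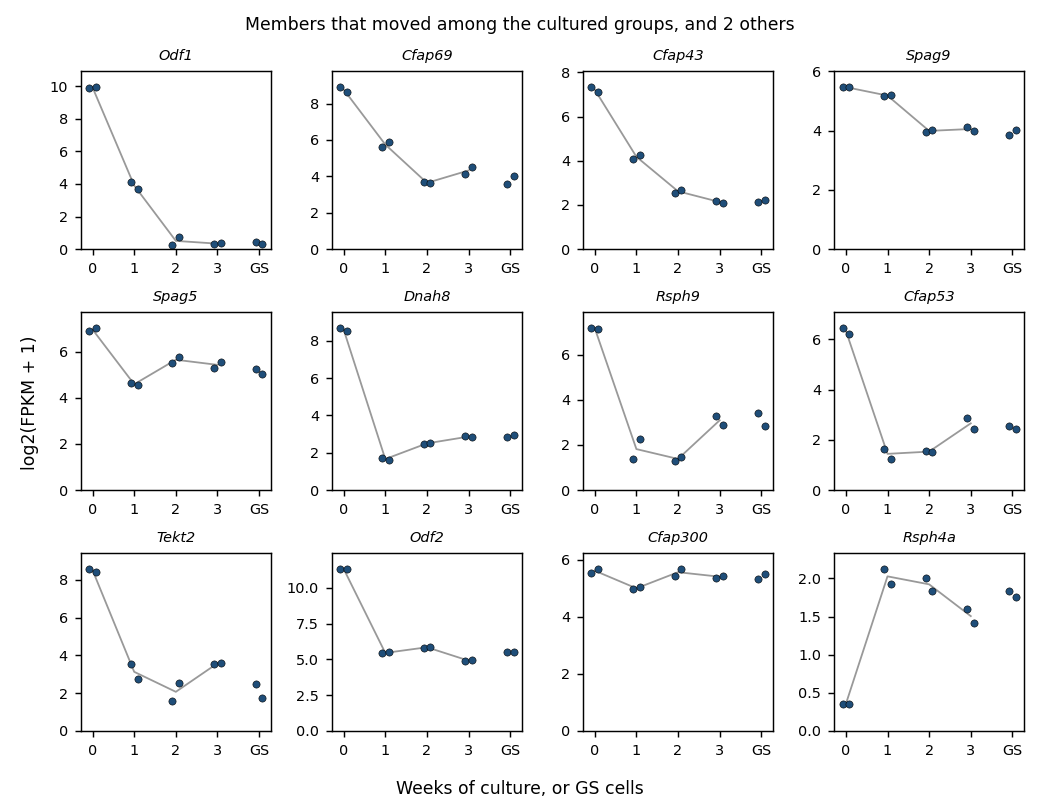
Level as log2(FPKM + 1) of 12 members by week of culture and in GS cells; points are single libraries, lines join the group means of weeks 0 to 3, and each panel has its own vertical axis from 0. Odf1, Cfap69, Cfap43 and Spag9 drop again between weeks 1 and 2, Rsph9 and Cfap53 rise at week 3, and Rsph4a alone is lowest at week 0.

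The third week was compared with the second in the same way. Of the 85 members 11 were higher and 3 lower at week 3, and 71 did not pass the test. Over all genes tested 21.3% were called, 10.6% higher and 10.7% lower. The count of higher members fell to 4 without either week 2 library, to 5 without the second week 3 library and to 6 without the first or without either week 0 library.

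The calls that held under every alternative were those of Rsph9, Cfap53, Cfap206 and Odf2. Rsph9, a spoke head protein, rose from 1.46 and 1.75 FPKM to 8.79 and 6.49 (log2 fold change 1.72, SE 0.303, adjusted p = 0.00657, limma), having stood at 1.57 and 3.85 at week 1. Cfap53, a protein inside the doublets, rose from 1.91 and 1.86 to 6.27 and 4.46 FPKM (log2 fold change 1.13, SE 0.186, adjusted p = 0.00498, limma). Cfap206 rose from 0.565 and 0.521 to 1.59 and 1.73 FPKM. In each of these the libraries of the 2 weeks did not overlap, and the week 3 means were 5.27%, 6.67% and 0.429% of the fresh ones. Odf2 fell from 55.6 and 58.2 to 28.5 and 30.0 FPKM (log2 fold change -0.94, SE 0.0666, adjusted p = 1.53e-04, limma). Beside these, 4 of the 17 meiotic markers rose and none fell, from a summed 543 and 504 FPKM to 678 and 707, and 6 of 18 mitosis genes fell (1406 and 1417 to 1132 and 1207 FPKM). Of the 12 fibroblast and matrix genes 6 fell, and the first week 3 library stood apart in their sum, with 348 FPKM against 692 in the second. Smooth muscle and myoid genes summed to 20.7 and 75.0 FPKM in these 2 libraries. These counts of called list genes changed with the settings of the fit, that of the fibroblast and matrix genes most. The part of these lists in the changes at week 3 was not tested.

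Tekt2 had the second largest rise at week 3, from 2.05 and 4.80 to 10.8 and 11.2 FPKM (log2 fold change 1.51, adjusted p = 0.0238, limma). That call was lost without either week 0 library, either week 3 library or the first week 2 library, with adjusted p up to 0.128. Cfap54, Cfap69, Cfap74, Dnaic1, Drc3, Rsph1 and Spag1 were also called higher, and Cfap43 and Cfap126 lower. Each of these 9 lost its call in 3 or more of the fits that left out 1 library, with adjusted p up to 0.202, and each of the 10 libraries decided at least 1 of them. Rfx3, an RFX factor of ciliated cells, had 7.41 and 7.62 FPKM at week 2 and 10.0 and 10.8 at week 3, and Rfx2 had 3.93 and 4.09 and then 2.28 and 2.48.

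Established GS cells were then set beside the third week. Of the 85 members 4 were higher and 7 lower in GS cells, beside 22.5% of all genes tested, 11.7% higher and 10.8% lower. The count of higher members was 1 without either GS library or the second week 3 library. The count of lower members was 2 without the second GS library and 4 without the first or without the second week 3 library. Odf2 was higher, with 45.6 and 44.0 FPKM against 28.5 and 30.0 at week 3 (log2 fold change 0.60, SE 0.0666, adjusted p = 0.00100, limma). Cfap74, a central apparatus protein, was lower, with 3.85 and 3.82 FPKM against 7.78 and 6.60 (log2 fold change -0.76, SE 0.129, adjusted p = 0.00565, limma). Cfap206 was lower too, at 0.542 and 0.628 FPKM against 1.59 and 1.73. These 3 calls held under every alternative, and their libraries did not overlap.

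The other 8 calls against week 3 rested on single libraries. Tekt2 stood at 4.68 and 2.39 FPKM in GS cells against 10.8 and 11.2 (log2 fold change -1.45, adjusted p = 0.0271, limma), and lost its call without either week 0 library, either week 3 library or the second GS library, with adjusted p up to 0.140. Rsph9 was not called, at 9.59 and 6.23 FPKM against 8.79 and 6.49. Cfap298 (72.8 and 61.8 against 47.4 and 36.5 FPKM) and Dnal1 (10.0 and 12.8 against 6.30 and 7.10) were called higher, and Cfap161, Rsph1, Drc3 and Odf3b lower. Without 1 or the other GS library each of these 6 lost its call, with adjusted p up to 0.198, and each library outside week 1 decided at least 1 of them. Cfap20 was called higher by 0.33 on the log2 scale, a call lost without either GS or either week 3 library, with adjusted p up to 0.128.

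Finally GS cells were compared with the fresh cells, which also serve as the reference for week 1, so the 2 comparisons are not independent. Of the 85 members 82 were lower, Rsph4a was higher, and Cfap300 and Spag7 did not pass the test. Over all genes tested 80.6% were called, 34.7% higher and 45.9% lower. Among the 29 members present in all 10 libraries 27 were lower, against 36.7% of such genes. Lower in the same comparison were all 9 Leydig cell genes (summed 2.87 and 3.16 FPKM in GS cells), 11 of 12 Sertoli cell genes (27.1 and 26.2), all 6 smooth muscle and myoid genes (63.4 and 74.8, against 817 and 963 in the fresh cells) and 8 of 9 macrophage genes (31.4 and 29.2, against 137 and 165). Of the Leydig genes 6 and 7 were at 0 in the 2 GS libraries, Insl3 and Lhcgr among them, as was Fshr of the Sertoli list. The 12 fibroblast and matrix genes split into 5 higher and 5 lower (663.9 and 646.7 FPKM, against 697.8 and 849.8 in the fresh cells). Of 18 undifferentiated spermatogonia markers 17 were higher and 1 lower. All 16 spermatid genes were lower (median log2 fold change -7.47), as were 13 of 17 meiotic genes (median -1.46), with none higher. List genes that passed the level in the fresh cells alone were lower by that choice. The part of any of these lists in the falls of the members was not tested. The plot of GS cell against fresh levels shows nearly all members below the line of equal levels.

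**Figure D5:**
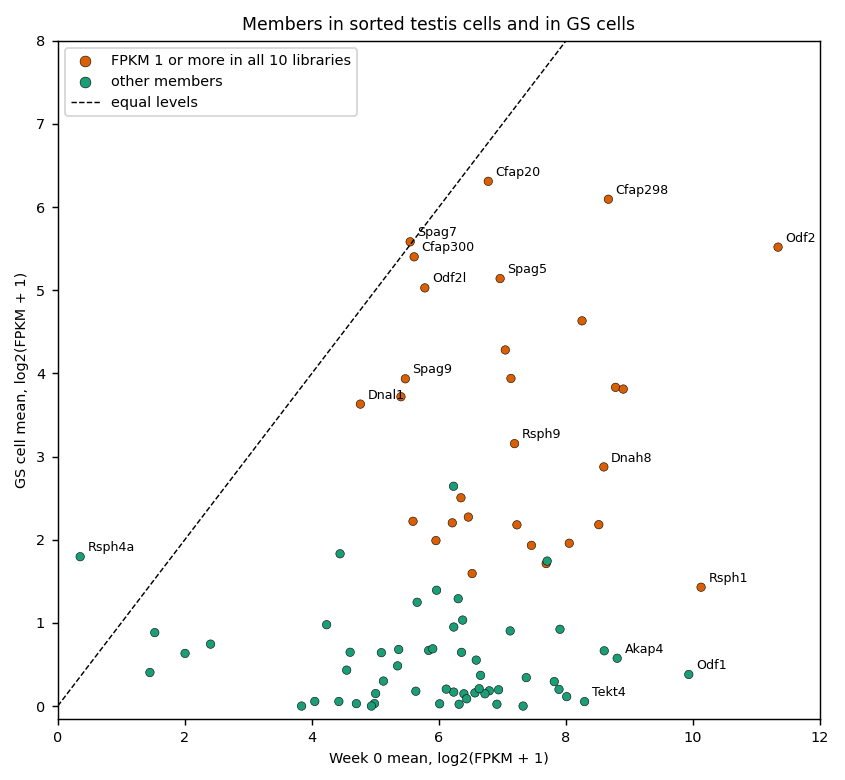
Mean level of each of the 85 members in GS cells (vertical axis) against the fresh CD9-selected cells (horizontal axis), both as log2(FPKM + 1), with the line of equal levels dashed; colour marks the 29 members at 1 FPKM or more in all 10 libraries. Rsph4a lies above the line, Spag7 and Cfap300 lie near it, and Odf1 lies farthest below it.

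On the log2(FPKM + 1) scale, which limits the difference by the fresh level, Odf1 had the deepest one, from 952 and 1001 FPKM to 0.367 and 0.235 (log2 fold change -9.55, SE 0.200, adjusted p = 1.77e-09, limma). Rsph1 stood at 1.68 and 1.71 FPKM (log2 fold change -8.70) and Akap4 at 0.576 and 0.403 (-8.23). Rsph4a was higher by 1.44 on the log2 scale, a description only, since it was a member through its cultured libraries alone. Dnah11, at 0.802 and 0.887 FPKM against 2.28 and 1.48, was called at an adjusted p of 0.0384 (limma). This call was lost without either GS library, either week 1 library, either week 3 library or the first week 0 library, with adjusted p up to 0.245, and its sign turned with quantile normalization. Cfap20 changed by -0.47 (adjusted p = 0.00142, limma), and its sign turned with quantile normalization and with a common FPKM sum.

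Among members present in every library, GS cells kept very different shares of the fresh level. Spag7 stood at 103% and Cfap300 at 86.3% of the fresh mean, followed by Cfap20 at 72.1%, Odf2l at 58.7% and Dnal1 at 43.5%. Spag9 stood at 33.0%, Spag1 at 29.5%, Spag5 at 27.7%, Cfap298 at 16.6% and Dnal4 at 14.1%. Dnah8 kept 1.64% and Rsph1 0.152%. Outside this set Odf1 kept 0.0308% and Tekt4 0.0121%, and Odf3, Odf3b and Cfap73 were listed at 0 in both GS libraries. Over all 85 members the median was 1.13%, close to 1.19% at week 1.

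Some members share exons with another protein-coding gene in GENCODE M21, 2 on the same strand and 13 on the opposite strand. The same-strand pairs are Cfap43 with Itprip and Rsph10b with Pms2, and the low cultured levels of Rsph10b (0.245 to 1.81 FPKM) stood beside 15.6 to 34.4 FPKM of Pms2. On the opposite strand Dnah14 had 3.16 to 5.0 FPKM in culture beside 66.3 to 139 FPKM of Lbr, and Cfap61 had 0.724 to 7.28 FPKM beside 30.3 to 41.9 of Crnkl1. Others of the 13 were lower beside abundant partners. Dnali1 had 0.0325 to 0.285 FPKM in culture beside 97.4 to 121 of Gnl2, and Dnah17 had 0.0134 to 0.338 beside 40.1 to 54.0 of Pgs1. How far the partners contribute to these low values was not tested.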

How the data were processed

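RNA was measured in 10 libraries of 5 groups, grouped by their labels. The authors deposited normalized FPKM for each library. Tools named in the submitters' processing notes are HISAT2 2.1.0, Cufflinks 2.2.1, Bowtie2 2.3.4.1, Cuffdiff, cutadapt 1.16 and bcl2fastq 2.17.1.14, with the build mm10. Libraries were stranded poly(A) libraries, per the labels' protocols. Not given in the sources used here: annotation release, filter, normalization method and strand setting of counting.

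The 15671 genes that reached 1 FPKM in 2 libraries entered, as log2(FPKM + 1), 1 fit of all 10 libraries with limma 3.58.1 in R 4.3.3 (empirical Bayes with intensity trend, 5 residual degrees of freedom), with 5 two-sided comparisons and Benjamini-Hochberg adjustment within each. On simulated data the procedure recovered 72% of changes of 1 and 93% of changes of 2 on the log2 scale for week 1 against week 0, over 15671 genes, with 9 false calls in all among the unchanged genes. Only 100 genes were changed for each size, drawn from genes with a mean log2(FPKM + 1) above 1. In the data 80.3% of genes were called in that comparison and many members were lower, so these rates do not carry over to them. Coordinates are from GENCODE M21 (GRCm38), which matched all 85 members. Depth came from 2268 genes with 1 transcript of at least 1500 bases, where 95.4% to 98.8% of low values were whole reads within 0.15. No count model was run, because the lengths behind most values are not known.

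Members and gene lists were chosen with earlier results of these data known. Members were named by rule: the 8 largest called rises and falls in each comparison, all members at 1 FPKM in every library, calls of 1 or more on the log2 scale within culture, values at the threshold, the highest member of each family, and members higher in GS than in fresh cells. Members named beyond it for their structural role, such as Dnah17, Rsph3b, Spag16 and Tekt1, were chosen after their values were seen. Alternatives were another pseudocount, filters, scalings, variance model, a replicate block and leaving out each library.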

Additional observations from a re-analysis of the deposited data

How the results depend on the processing

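The counts of lower members against the fresh cells held in every alternative, at 77 to 84 for week 1 and 77 to 83 for GS cells. Scaling mattered for small changes. Quantile normalization and a common FPKM sum moved the median of all genes for GS cells against week 0 from -0.21 to 0.45 and 0.17, and the share of higher genes among all calls from 43% to 61.1% and 54.1%. For week 1 against week 0 that share went from 45.2% to 59.8% and 51.3%, and for week 2 against week 1 from 50.7% to 61.8% and 66.2%. Signs turned, with no call, for Spag9 at week 1 (quantile, 0.16) and in GS against fresh cells for Dnah11 (quantile, 0.44) and Cfap20 (quantile 0.057, common sum 0.015). The cause was not tested.

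Higher members at week 1 went from 1 to 2 with either scaling. In GS against fresh cells they went from 1 to 2 with either scaling or without a filter. At week 3 higher members went from 11 to 6 without a filter, where more genes are tested, and lower ones from 3 to 5 with a pseudocount of 0.1 or a common sum. In GS cells against week 3 higher members went from 4 to 1 without a filter, to 2 with either scaling and to 2 with the replicate block, and lower ones from 7 to 4 without a filter. Leaving out each library in turn gave 1 to 1 higher and 82 to 83 lower members at week 1, 10 to 13 and 8 to 14 at week 2, 4 to 13 and 1 to 3 at week 3, 1 to 4 and 2 to 8 in GS cells against week 3, and 1 to 1 and 81 to 82 in GS against fresh cells. An arm left with 1 library is assumed to vary like the others. Some counts of called list genes also changed with the settings. Among them were the meiotic rises and fibrous sheath falls at week 2, and the mitosis and fibroblast falls at week 3. The fibroblast falls in GS against fresh cells changed as well.

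Replicate numbers did not pair the libraries (correlations of deviations -0.053 to 0.046), and the replicate block left the counts at 13 higher and 11 lower at week 2 and 10 and 3 at week 3. A fit of the 8 cultured libraries alone, added after the data were seen, tested 47 members. Of the 25 main calls at week 2 it tested 21 and kept 20, and of the 14 at week 3 it kept 12. Of the 11 main calls in GS cells against week 3 it tested 9 and kept 9. The calls it did not test missed its level in the cultured libraries. Depth limits the low members, since 1 FPKM of a 2200-base transcript is 20.7 to 42.2 reads.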
